A study of Mus musculus with 6 samples.

Results

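The PAQR family is a set of membrane proteins named after its founding ligands, progestins and the adipocyte hormone adiponectin. Its 10 genes followed here are Paqr3, Paqr4, Paqr5, Paqr6, Paqr7, Paqr8, Paqr9, Adipor1, Adipor2 and Mmd. They were found by gene symbol in the authors' table of 47729 mouse genes, where each of the 10 had its own row. All 10 were among the 17023 genes that passed the low-count filter. The family was selected on the Paqr7 log2 fold change between the gels, which earlier results from these same libraries had shown to be large. The Paqr7 difference is therefore given as a description, and counts of members past a test leave Paqr7 out.

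The libraries came from the epidermis of wild type C57BL/6 mice whose skin received a gel with AKBA (3 libraries) or a blank control gel (3 libraries). AKBA commonly stands for a boswellic acid derivative, a triterpenoid found in the resin of Boswellia trees. The control libraries also carry the letters IMQ in their descriptions, and the sources used here do not state whether either group had another treatment, or how old the mice were. Separate animals for the replicates are not stated either, so a p-value reflects variation among these libraries, which may be technical.

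PAQR proteins cross the membrane several times, like G protein-coupled receptors, but form a separate family. Adipor1 and Adipor2 bind adiponectin, act through the kinase AMPK and the nuclear receptor PPARα, and have ceramidase activity. Paqr7, Paqr8, Paqr5, Paqr6 and Paqr9 encode the membrane progestin receptors α, β, γ, δ and ε, which bind progestins at the cell surface and signal within minutes, unlike the nuclear progesterone receptor. Paqr3 and Paqr4 proteins reside in the Golgi, and Mmd was first described in maturing macrophages.

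Paqr7 lies on the plus strand of chromosome 4 (134496697 to 134510235, GENCODE M21 on GRCm38). Paqr5 lies on the minus strand of chromosome 9 (61953481 to 62026856) and Paqr8 on the plus strand of chromosome 1 (20890606 to 20939650). The other progestin receptor genes are Paqr6 on the plus strand of chromosome 3 (88364584 to 88368541) and Paqr9 on the plus strand of chromosome 9 (95559657 to 95568023). Adipor1 lies on the plus strand of chromosome 1 (134415378 to 134433351) and Adipor2 on the minus strand of chromosome 6 (119353150 to 119417704). Paqr3 lies on the minus strand of chromosome 5 (97082329 to 97111596), Paqr4 on the minus strand of chromosome 17 (23736186 to 23740867) and Mmd on the plus strand of chromosome 11 (90249456 to 90278589). RefSeq (GRCm38.p6) gave promoter windows for 9 of the 10 genes, 12 windows in all. The sequences below are the stretches before the first start of Paqr7, Paqr5 and Paqr8 that lie in no annotated exon, shown because these are the 3 progestin receptor genes with the highest mean FPKM. Each reads 5′ to 3′ on the strand of its gene, with capitals marking the motifs found there.
Paqr7, chr4:134496511-134496696, plus strand: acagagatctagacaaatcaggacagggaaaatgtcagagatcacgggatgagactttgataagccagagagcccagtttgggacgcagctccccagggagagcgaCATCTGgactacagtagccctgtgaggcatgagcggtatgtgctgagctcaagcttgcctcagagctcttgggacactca
Paqr5, chr9:62026857-62027040, minus strand: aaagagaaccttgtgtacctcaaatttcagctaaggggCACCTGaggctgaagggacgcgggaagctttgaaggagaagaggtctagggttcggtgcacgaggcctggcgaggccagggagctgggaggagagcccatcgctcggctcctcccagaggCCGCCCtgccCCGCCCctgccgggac
Paqr8, chr1:20890298-20890547, plus strand: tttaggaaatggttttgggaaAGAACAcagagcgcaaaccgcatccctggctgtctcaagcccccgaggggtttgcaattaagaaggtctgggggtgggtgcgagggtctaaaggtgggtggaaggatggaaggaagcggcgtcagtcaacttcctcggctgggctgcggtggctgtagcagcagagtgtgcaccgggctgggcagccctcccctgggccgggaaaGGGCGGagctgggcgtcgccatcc

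The 8 motifs searched on both strands, each also where it overlapped another, were the GC box GGGCGG, the CCAAT box CCAAT, the TATA box TATAAA, the steroid receptor half-site TGTTCT, the nuclear receptor half-site AGGTCA, the AP-1 site TGANTCA, the E-box CANNTG and the AP-2 site GCCNNNGGC. The Paqr7 stretch held 1 E-box, the Paqr5 stretch 2 GC boxes and 1 E-box, and the Paqr8 stretch 1 GC box and 1 steroid receptor half-site. Over the full windows of 250 bases before a start, a GC box stood in 10 of the 12 windows of the family, against 32.7% of 32841 mouse promoter windows. The share of G and C in the 12 windows ran from 46.0% to 79.2%, beside a median of 52.4% over all windows. Its part in the GC box count was not tested. The steroid receptor half-site stood in 2 of the 12 windows, both of Paqr8, against 16.1% of all windows. A TATA box and an AP-1 site stood in none of the 12, against 12.4% and 6.75% of all windows. These matches describe letters in a window and are not binding sites.

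Levels of different genes were compared in the deposited FPKM, which divide by a length for each gene. For Paqr7 the length implied by its counts and FPKM was 4259 bases, equal to its annotated exon bases. The implied length differed most from the exon bases for Mmd, at 5387 against 3581, and the reason was not tested. The adiponectin receptors led the family. Adipor1 averaged 43.9 ± 6.29 FPKM and Adipor2 36.3 ± 3.15 FPKM over all 6 libraries (SD, n = 6), and their ranges overlapped. The lowest Adipor2 library (31.6 FPKM) stood above the highest Mmd library (15.0 FPKM). Mmd (12.8 ± 1.83 FPKM), Paqr7 (9.28 ± 6.38), Paqr4 (9.17 ± 1.27), Paqr5 (5.36 ± 2.77) and Paqr8 (3.76 ± 1.16) came next, and each overlapped its neighbour in this order. A gap then separated Paqr8 (lowest library 2.55 FPKM) from Paqr3 (1.14 ± 0.387) and Paqr6 (1.11 ± 0.418), which overlapped each other. Paqr9 was the lowest at 0.307 ± 0.0784 FPKM, and its highest library (0.40 FPKM) stood below the lowest of Paqr6 (0.45 FPKM).

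**Figure D1:**
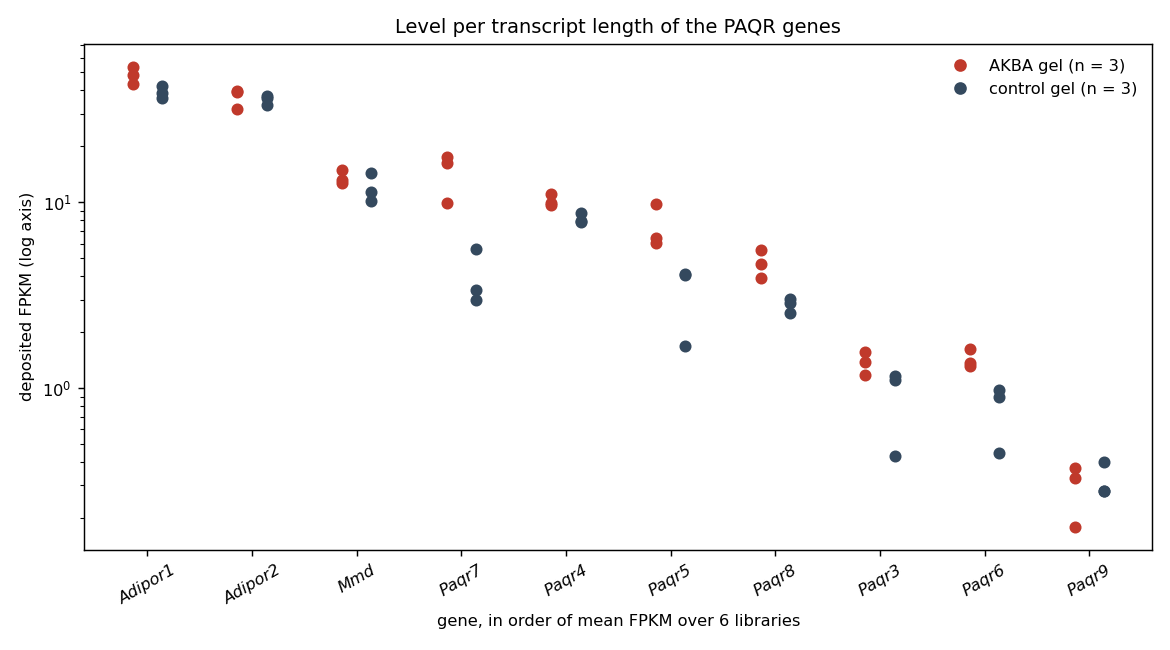
Deposited FPKM (log axis) of the 10 genes in order of their mean over 6 libraries, with 1 point per library, AKBA gel in red on the left and control gel in dark blue on the right of each gene. The adiponectin receptors lie at 31.6 to 53.5 FPKM, and Paqr7 lies at 9.94 to 17.5 FPKM with AKBA gel and 3 to 5.63 FPKM with control gel.

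The place of Paqr7 in this order differed between the groups. With AKBA gel it ranked 3 in the family, at 14.6 ± 4.05 FPKM, and with control gel it ranked 5, at 4.003 ± 1.42 FPKM (SD, n = 3 each). It was the most abundant of the 5 progestin receptors in 5 of 6 libraries, the exception being control replicate 2, where Paqr5 stood higher (4.09 against 3.38 FPKM). The ratio of Paqr7 to Paqr8 FPKM was 3.49, 3.17 and 2.52 in the AKBA libraries, against 1.87, 1.17 and 1.18 in the control libraries. Paqr7 thus exceeded Paqr8 in every library.

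Paqr7, progestin receptor α, was the member with the widest difference between the gels. On the CPM scale (counts scaled to the library total after TMM normalisation) it stood at 70.6, 75.6 and 39.7 in the AKBA libraries, against 23.5, 13.97 and 13.9 in the control libraries. Every AKBA library lay above every control library, and AKBA replicate 3 was the nearest to the control group. It averaged 62.0 ± 19.5 CPM in AKBA libraries, against 17.1 ± 5.49 CPM in control libraries (SD, n = 3 each), a ratio of 3.62. The log2 fold change was 1.85 ± 0.30 (SE), and 38 of the 17023 genes tested, Paqr7 included, had a value at least as high. The counts behind these values were 1440, 1422 and 931 with AKBA gel and 493, 320 and 291 with control gel, which are high enough for counting error to be small beside the spread between libraries. With 1 library left out the log2 fold change ran between 1.69 and 2.16. No other gene annotated in GENCODE M21 overlapped Paqr7. In bulk tissue, fewer cells of a type and less RNA per cell cannot be told apart.

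Paqr8, progestin receptor β, had 3 control libraries close to each other. It stood at 26.0, 30.7 and 20.2 CPM in the AKBA libraries, against 16.2, 15.3 and 15.2 CPM in the control libraries. The groups did not overlap, and AKBA replicate 3 was the AKBA library nearest to the control group, as for Paqr7. The log2 fold change was 0.72 ± 0.16 (SE, edgeR adjusted p over all genes = 0.331), and it lay between 0.57 and 0.88 with 1 library left out.

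Paqr5, progestin receptor γ, stood at 24.3, 39.3 and 23.9 CPM in the AKBA libraries, against 15.8, 15.7 and 7.28 CPM in the control libraries. The groups did not overlap, AKBA replicate 2 was the highest library and control replicate 3 the lowest. The log2 fold change was 1.17 ± 0.33 (SE, edgeR adjusted p over all genes = 0.331). Leaving out control replicate 3 gave 0.89, and leaving out AKBA replicate 2 with it gave 0.62.

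Paqr6 and Paqr9, progestin receptors δ and ε, were scarce. Paqr6 had 67, 63 and 87 counts with AKBA gel and 45, 53 and 25 with control gel, or 3.29, 3.35 and 3.71 CPM against 2.14, 2.31 and 1.198 CPM. Its groups did not overlap, and its log2 fold change was 0.87 ± 0.28 (SE, edgeR adjusted p over all genes = 0.336). Paqr9 had 65, 28 and 60 counts with AKBA gel and 69, 52 and 53 with control gel, or 3.19, 1.49 and 2.56 CPM against 3.29, 2.27 and 2.54 CPM. It was the only member below 0 by edgeR, at -0.16 ± 0.32 on the log2 scale (SE, adjusted p over all genes = 0.865), its groups overlapped, and the sign turned when AKBA replicate 2 (0.090) or control replicate 1 (0.016) was left out.

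Summed over the 5 progestin receptors, the level was 127, 150.5 and 90.1 CPM in the AKBA libraries, against 60.9, 49.6 and 40.2 CPM in the control libraries. They made up 17.3%, 19.5% and 15.8% of the summed CPM of the family with AKBA gel, and 10.4%, 9.87% and 6.84% with control gel. Paqr7 alone supplied 55.4%, 50.2% and 44.0% of the progestin receptor sum with AKBA gel and 38.5%, 28.2% and 34.7% with control gel. The lowest AKBA library was above the highest control library in each of these 3 measures, which rest on the same values as the genes above.

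**Figure D2:**
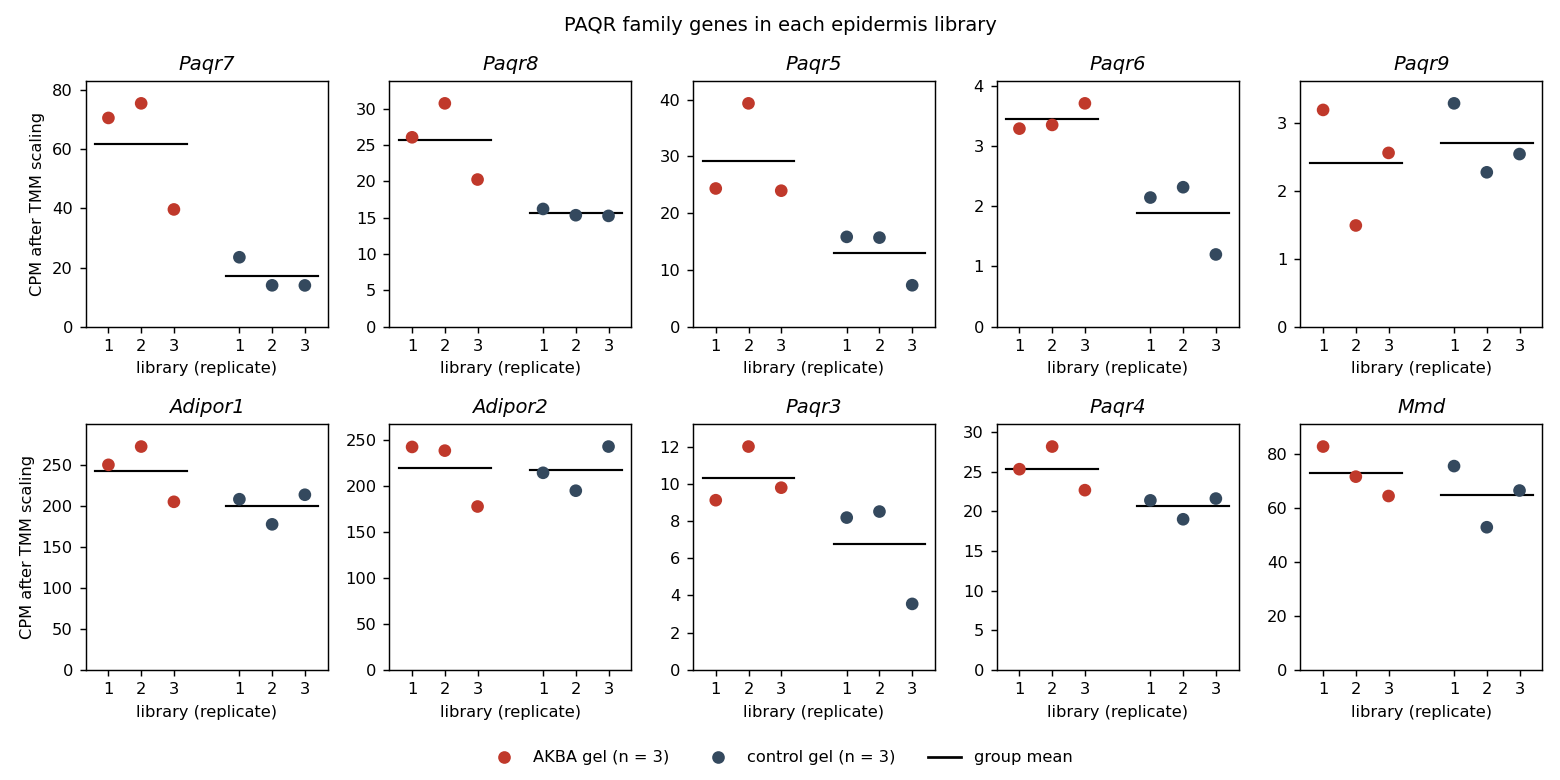
CPM after TMM scaling for each gene in each library (linear axes from 0), AKBA gel in red on the left, control gel in dark blue on the right, with lines at the group means (n = 3 each). Paqr7, Paqr8, Paqr5, Paqr6, Paqr3 and Paqr4 show no overlap between the groups, while the points of Paqr9, Adipor1, Adipor2 and Mmd mix.

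The adiponectin receptors, which made up most of the family's counts, had overlapping groups. Adipor1 stood at 250.2, 273 and 205 CPM with AKBA gel and at 208, 178 and 214 CPM with control gel. Its log2 fold change was 0.28 ± 0.15 (SE, edgeR adjusted p over all genes = 0.454). Adipor2 stood at 242, 238 and 177 CPM with AKBA gel and at 214, 194 and 242 CPM with control gel. Its log2 fold change was 0.014 ± 0.16 (SE, edgeR adjusted p over all genes = 0.978), and the sign turned when AKBA replicate 1 (-0.063), AKBA replicate 2 (-0.049) or control replicate 2 (-0.063) was left out. The ratio of Adipor1 to Adipor2 FPKM was 1.23, 1.36 and 1.38 with AKBA gel and 1.16, 1.09 and 1.05 with control gel.

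Paqr3, which holds Raf kinase at the Golgi and anchors the SREBP escort Scap there, stood at 9.12, 12.01 and 9.80 CPM with AKBA gel and at 8.19, 8.51 and 3.55 CPM with control gel. The groups did not overlap by a narrow margin, and control replicate 3 stood far below the other libraries. Its log2 fold change was 0.61 ± 0.32 (SE, edgeR adjusted p over all genes = 0.454), 0.30 without control replicate 3 and 0.18 without AKBA replicate 2 as well. Paqr3 shares exon sequence with Bmp2k on the opposite strand, and strand-specific counting is not stated. Reads of the shared stretches may therefore not be told apart. Bmp2k averaged 66.5 ± 5.05 CPM in AKBA libraries, against 86.3 ± 10.1 CPM in control libraries (SD, n = 3 each).

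Paqr4, which stabilises the cyclin-dependent kinase CDK4 in human cancer cells, stood at 25.3, 28.2 and 22.7 CPM with AKBA gel and at 21.4, 18.99 and 21.6 CPM with control gel. The groups did not overlap, although AKBA replicate 3 and control replicate 3 were close. Its log2 fold change was 0.30 ± 0.12 (SE, edgeR adjusted p over all genes = 0.365). Its exons overlap those of Pkmyt1, a kinase that holds back entry into mitosis, on the opposite strand, and Pkmyt1 averaged 21.7 ± 3.46 CPM in AKBA libraries, against 19.5 ± 4.08 CPM in control libraries. Mmd stood at 82.8, 71.6 and 64.5 CPM with AKBA gel and at 75.6, 52.9 and 66.5 CPM with control gel. The groups overlapped, and the log2 fold change was 0.17 ± 0.16 (SE, edgeR adjusted p over all genes = 0.672). Mmd2, its closest relative, had at most 3 counts in any library and was not tested. The exons of Mmd overlap those of Gm45716 and Gm45883 on the same strand, so reads of the shared stretches cannot be told apart. Neither of these genes has a row in the authors' table.

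By edgeR's quasi-likelihood test with Benjamini-Hochberg adjustment over all genes, 0 of the 9 members other than Paqr7 passed at 0.05, and 0 of 17023 genes did (0%). Without control replicate 1 edgeR called 0 of these 9 members, against 0.0804% of 17416 genes. At an unadjusted p under 0.05 there were 4 of the 9 (Paqr4, Paqr5, Paqr6 and Paqr8), each with a positive log2 fold change, against 13.5% of all genes tested in either direction (2291 genes) and 6.45% higher. The AKBA libraries all lay above the control libraries for 5 of the 9, against 9.28% of all genes, and below them for 0, against 9.1%. The median log2 fold change of the 9 was 0.30, beside 0.0037 over all genes tested, and 8 of 9 had a value above 0, against 50.4% of all genes. Since the family was chosen with results of these libraries known, nothing is read from these shares. DESeq2, an alternative count test, called 2 of the 9 higher, Paqr5 (adjusted p = 0.0268) and Paqr8 (adjusted p = 0.0316), against 1.93% of the 15752 genes with an adjusted p that it called in either direction and 0.603% that it called higher. For Paqr5 and Paqr8 alike, the adjusted p of the edgeR alternatives ran up to 0.972, and its lowest value was 0.144 for Paqr5 and 0.141 for Paqr8.

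**Figure D3:**
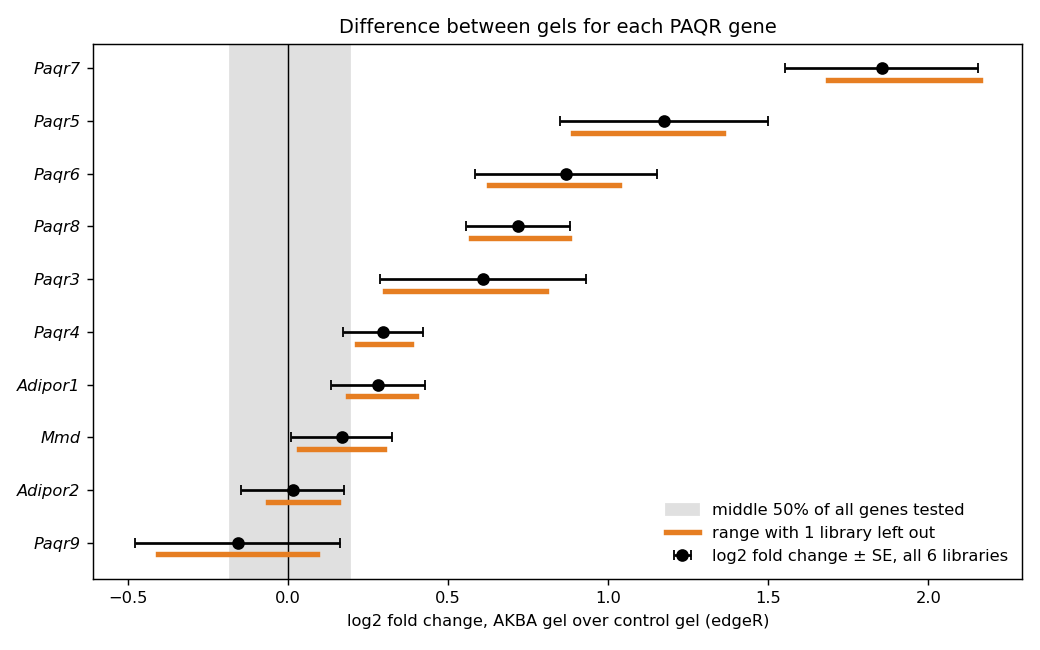
Log2 fold change (AKBA over control) for each gene by edgeR (points with SE bars, 3 libraries a group), with the range reached when 1 library is left out (orange) and the middle 50% of all 17023 genes tested (grey band, -0.18 to 0.19). Paqr7 stands farthest right at 1.85, and Adipor2 and Paqr9 lie around 0 with ranges on both sides of it.

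Beside Paqr7, the authors' deposited table called 1 of the 9 other members higher with AKBA gel, Paqr5, among 273 called genes (0.572% of its rows, 0.241% called higher). In the authors' deposited table Paqr7 has a log2 fold change of 1.84, and Paqr5 has one of 1.15 with an FDR of 0.0115. In the authors' deposited table Paqr8 has an FDR of 0.0476 with a log2 fold change of 0.71 and is not marked as significant, and the smallest size among its marked genes is a log2 fold change of 1. The authors also deposited a separate list of Gene Ontology terms for the higher genes, with 19 terms for Paqr7 and 15 for Paqr5. Receptor activity is among the terms of both and holds 8 higher genes. These places follow from the calls, which for Paqr7 rest on the difference that chose the family.

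Other genes of the pathways were followed in 5 lists, and by edgeR none of their 60 tested members passed over all genes. The counts below at an unadjusted p under 0.05 stand beside 13.5% of all genes tested, and the counts above 0 beside 50.4%. Of 17 genes for steroid receptors, progestin binding and steroid enzymes, 13 were tested, 3 had an unadjusted p under 0.05, and the median log2 fold change was 0.0059. The nuclear progesterone receptor gene Pgr had too few counts to be tested, with 5, 2 and 2 counts in the AKBA libraries, against 1, 1 and 2 in the control libraries. Pgrmc2 and Pgrmc1 encode membrane-associated progesterone receptor components, which belong to a family unrelated to PAQR. Pgrmc2 averaged 162 ± 32.2 CPM in AKBA libraries, against 107 ± 16.0 CPM in control libraries (SD, n = 3 each), a log2 fold change of 0.59 ± 0.18. The Pgrmc2 groups overlapped. Pgrmc1 averaged 121 ± 12.9 CPM in AKBA libraries, all above the control libraries at 95.8 ± 4.26 CPM (0.33 ± 0.11). Nr3c1, the glucocorticoid receptor gene, averaged 120.3 ± 12.1 CPM in AKBA libraries, against 109 ± 12.5 CPM in control libraries (0.14 ± 0.13).

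Among 9 G protein subunit genes, 0 had an unadjusted p under 0.05, against 13.5% of all genes tested, and the median log2 fold change was 0.029. Gnai3 and Gnai2, inhibitory α subunits of the kind that progestin receptors α and β signal through, had log2 fold changes of 0.077 ± 0.15 and -0.17 ± 0.12, and the β subunit gene Gnb1 had -0.11 ± 0.12. Of 14 adiponectin signalling genes, 2 had an unadjusted p under 0.05, against the same 13.5%, and the median was 0.012. Appl1 and Appl2 encode adaptors that bind the adiponectin receptors. Appl2 averaged 113 ± 17.2 CPM in AKBA libraries, against 85.7 ± 5.19 CPM in control libraries (log2 fold change 0.40 ± 0.13), and Appl1 had a log2 fold change of -0.092 ± 0.11. Stk11, the kinase LKB1 upstream of AMPK, had one of 0.19 ± 0.11. The ligand gene Adipoq, named after its values were seen, averaged 56.6 ± 6.18 CPM in AKBA libraries, against 56.9 ± 18.7 CPM in control libraries.

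The products of the 7 ceramidase and sphingosine kinase genes act on the same lipids as the ceramidase activity of the adiponectin receptors. These genes had a median log2 fold change of 0.36, with 6 above 0, against 50.4% of all genes tested. An unadjusted edgeR p under 0.05 was found for 3, against 13.5% of all genes tested. Acer1, the alkaline ceramidase of differentiated epidermis, averaged 174 ± 38.3 CPM in AKBA libraries, against 119.96 ± 16.9 CPM in control libraries (log2 fold change 0.54 ± 0.19). The Acer1 groups overlapped, with AKBA replicate 3 (131 CPM) below control replicate 1 (133 CPM). Asah2 (0.29 ± 0.26) and Asah1 (-0.089 ± 0.11), a neutral and an acid ceramidase, also overlapped between the groups. The AKBA libraries all lay above the control libraries for 3 of the 7 genes, against 9.28% of all genes tested. The 17 genes of the Raf kinase and SREBP pathways had a median of 0.026 with 3 at an unadjusted p under 0.05, against the same 13.5%. The sterol regulator gene Srebf2 had a log2 fold change of -0.23 ± 0.15, and the kinase gene Mapk3 had 0.17 ± 0.13. DESeq2 called 2 of the 60 genes of these lists, against 1.93% of all genes with an adjusted p. They were Sphk1, which makes sphingosine-1-phosphate (edgeR log2 fold change 0.95 ± 0.28), and Insig2, which retains Scap in the endoplasmic reticulum (0.66 ± 0.16). Both are named here after their values were seen, and edgeR's adjusted p over all genes was 0.331 for each.

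The libraries held 19066045 to 21992741 counts with AKBA gel and 20568296 to 22760432 with control gel, in which 3 counts correspond to 0.128 to 0.159 CPM. All of the epidermal and other markers listed were detected, and no marker was at 0 in every library. Hair follicle markers varied widely within each group. They took 0.00376%, 0.0918% and 0.237% of the counts with AKBA gel and 0.0310%, 0.325% and 0.0101% with control gel, with 5 of 9 above 0 (median 0.020). Fibroblast markers took 1.95% to 2.78% of the counts with AKBA gel and 1.75% to 3.64% with control gel. Skeletal muscle markers took 0.746% to 0.819% with AKBA gel and 0.543% to 1.005% with control gel. The libraries labelled epidermis thus held fibroblast and muscle transcripts too. How far tissue other than epidermis entered the samples, and its part in the levels of the members, was not tested. Endothelial markers, 0 of 5 above 0 (median -0.48), took 0.0173% to 0.0310% with AKBA gel and 0.0309% to 0.0367% with control gel. Of the suprabasal keratinocyte markers, all 9 had a log2 fold change above 0 (median 0.50), and they took 5.67%, 6.73% and 3.90% of the counts with AKBA gel and 4.20%, 2.77% and 2.98% with control gel. AKBA replicate 2 and AKBA replicate 1 were the highest libraries for these markers and for Paqr7, while AKBA replicate 3 stood below control replicate 1 for the markers and above it for Paqr7. Sebaceous gland markers, 7 of 7 above 0 (median 0.69), took 0.145%, 0.0749% and 0.0885% with AKBA gel and 0.0811%, 0.0771% and 0.0400% with control gel. Stress keratins, 0 of 4 above 0 (median -2.39), took 0.519%, 0.151% and 0.533% with AKBA gel and 0.716%, 1.91% and 2.79% with control gel. Basal keratinocyte markers took 1.16% to 1.59% with AKBA gel and 1.54% to 3.09% with control gel, with 3 of 8 above 0. The part of these cell types in the Paqr7, Paqr5 and Paqr8 values was not tested.

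**Figure D4:**
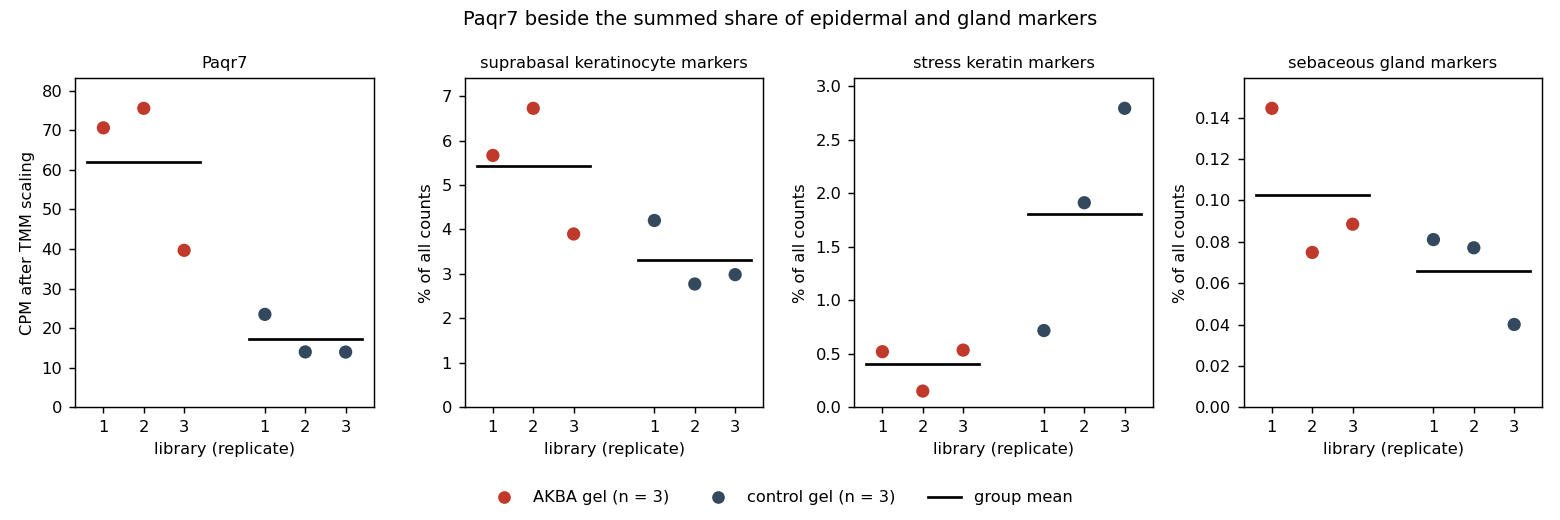
Paqr7 in CPM and the summed share of all counts taken by suprabasal keratinocyte, stress keratin and sebaceous gland markers in each library, AKBA gel in red on the left, control gel in dark blue on the right, with lines at the group means (n = 3 each). Paqr7 and the stress keratins separate the groups in opposite directions, and the suprabasal and sebaceous shares overlap between the groups.

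Markers of adipocytes, which make adiponectin, of macrophages, in which Mmd was first described, and of cycling cells were also followed. The summed share of each list overlapped between the groups, and most genes of each list had a log2 fold change below 0. Adipocyte markers took 0.0991% to 0.109% of the counts with AKBA gel and 0.0845% to 0.125% with control gel, with 2 of 9 above 0 (median -0.14). Macrophage markers, 0 of 8 above 0 (median -0.35), took 0.150% to 0.177% with AKBA gel and 0.176% to 0.220% with control gel, a narrow overlap. For 4 of the 8 all AKBA libraries lay below all control libraries, against 9.1% of all genes tested. This held for 0 of the adipocyte and 0 of the cycling cell markers. Cycling cell markers took 0.0393% to 0.0761% with AKBA gel and 0.0432% to 0.0753% with control gel, beside the Paqr4 values. Their part in the values of Adipor1, Adipor2, Mmd and Paqr4 was not tested.

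The genes with the profile most like Paqr7 were found by the root mean square difference of log2 CPM over the 6 libraries, after each gene's own mean was taken off, among 12260 other genes with a mean of at least 5 CPM. The 5 nearest were Gng4 (0.220), Cyp2b19 (0.231), Gm20627 (0.245), Gal3st1 (0.253) and Slc46a2 (0.270). Gng4 encodes a γ subunit of G proteins, and it stood at 21.9, 26.9 and 12.7 CPM with AKBA gel and at 10.4, 6.29 and 4.55 CPM with control gel. Cyp2b19, a cytochrome P450 of mouse keratinocytes, stood at 203, 296 and 99.4 CPM with AKBA gel and at 80.0, 53.4 and 41.0 CPM with control gel. For both genes AKBA replicate 3 was the lowest AKBA library and control replicate 1 the highest control library, as for Paqr7. This follows from how the genes were chosen. The likeness also includes the Paqr7 difference between the gels that chose the family, so it is a description. Gal3st1 makes sulfated galactolipids, Slc46a2 is a solute carrier, and Gm20627 is annotated as a processed transcript with no known role here. Within the family, Paqr5 ranked 89 in likeness to Paqr7, Paqr8 233, Paqr3 505, Adipor1 1260, Paqr4 1265, Mmd 1859 and Adipor2 4222, while Paqr6 and Paqr9 were under 5 CPM and not ranked.

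**Figure D5:**
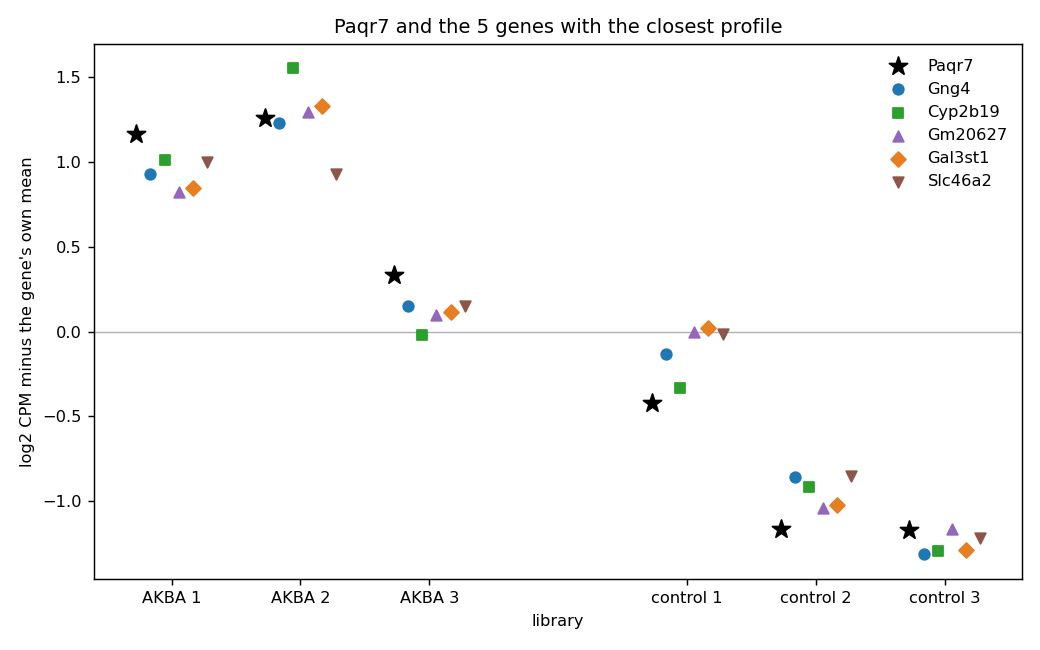
Log2 CPM minus each gene's own mean over 6 libraries for Paqr7 (black stars) and the 5 genes with the smallest root mean square difference from it, AKBA libraries on the left and control libraries on the right. All 6 genes are high in AKBA replicates 1 and 2 and low in control replicates 2 and 3, with AKBA replicate 3 and control replicate 1 between them.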

How the data were processed

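RNA was sequenced from 6 libraries, grouped by their titles. The authors deposited whole-number counts, FPKM values, and their own log2 fold changes and p-values, per the file headers. GRCm38 is the build, and CASAVA 1.8, RSEM and edgeR the tools, per the submitters' processing notes. Their roles, the annotation release and any strand setting are not stated, nor whether counts were rounded. Counts were tested as deposited with edgeR 4.0.16 (TMM scaling, default low-count filter, quasi-likelihood F test, 2-sided, Benjamini-Hochberg over all genes tested, threshold 0.05), and DESeq2 1.42.0 was an alternative. The SE is the log2 fold change divided by the square root of F. No pair of libraries within a group agreed within sampling noise (lowest chi-square per degree of freedom 30.8), and each library was 1 sample. The FPKM served only to compare levels between genes. Intervals of depth (3 counts) cover counting error only.

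The members and lists were chosen with earlier results of these data known. The rule for named genes took all 10 members, the 3 most abundant genes of each pathway list with any called gene, and the 5 genes most like Paqr7. One gene that this rule names is not reported here. Gene positions are those of GENCODE M21, and promoters those of RefSeq on GRCm38.p6. Alternatives were other size factors, no filter, a floor of 5 CPM in 3 libraries, DESeq2, a block for the replicate number, and libraries left out.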

Additional observations from a re-analysis of the deposited data

How the results depend on the processing

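By edgeR no gene passed with DESeq2-type size factors, without the low-count filter or with 5 CPM in 3 libraries (8 members tested, Paqr7 among them). None passed without AKBA replicate 2 and control replicate 3 together either. In each of these settings 0 members other than Paqr7 and 0 other pathway genes passed. With 1 library left out the number of genes called ran between 0 and 14, the 14 without control replicate 1. Members called, Paqr7 left out, stayed at 0. DESeq2 called 304 of 15752 genes (1.93%, with 0.603% called higher). It called 2 of the 9 members other than Paqr7, Paqr5 and Paqr8, both higher, and 2 of 60 other pathway genes. Paqr7, whose difference chose the family, is left out of this count. With the replicate number as a block edgeR called 0 genes, 0 members other than Paqr7 and 0 other pathway genes. Deviations of same-numbered libraries from their group means correlated at 0.072, 0.019 and -0.33. With 3 libraries a group, whose deviations constrain each other, these values cannot decide whether the numbers pair the libraries. No label states a pairing. Over all alternatives 8 of the 10 members kept the sign of their log2 fold change. With 1 library left out Paqr9 ran between -0.41 and 0.090 and Adipor2 between -0.063 and 0.16. Paqr9 turned to 0.090 without AKBA replicate 2, 0.016 without control replicate 1 and 0.049 without AKBA replicate 2 and control replicate 3 together, and Adipor2 to -0.063 without AKBA replicate 1, -0.049 without AKBA replicate 2 and -0.063 without control replicate 2. The range for Paqr7 was 1.56 to 2.16. The order of levels kept 6 of 10 places in the AKBA libraries alone. Lowering the floor to 1 CPM kept 2 of the 5 genes most like Paqr7. The cause was not tested for any of these shifts. Paqr9 and Paqr6, at 25 to 87 counts a library, are the members whose precision depth limits most.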
